A study of Mus musculus with 4 samples.

Results

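The smooth muscle phenotype transcription factors are a set of 9 genes, *Myocd*, *Srf*, *Klf4*, *Klf5*, *Gata6*, *Mef2c*, *Elk1*, *Foxo4* and *Prrx1*, chosen by name from the 21462 genes of the deposited table. All 9 were present and passed the minimum for testing. Their RNA was measured in cells sorted from the lungs of C57BL/6 mice, in 2 Tet3 mutant and 2 control libraries. TET3 oxidizes 5-methylcytosine in DNA to 5-hydroxymethylcytosine, and the comparison asked how its loss in smooth muscle cells (SMCs) alters gene expression. Mutant mice carried floxed *Tet3* alleles, a tamoxifen-inducible Cre (α-SMA ERT2Cre) driven by the α-SMA promoter, and a ROSA26 tdTomato reporter. By the study's methods, control mice lacked the floxed *Tet3* allele and carried the Cre, the reporter or both, and tamoxifen was injected in young adults. Leukocytes and erythroid cells were depleted with CD45 and Ter-119 beads before living tdTomato-positive cells were sorted. Marking SMCs with tdTomato relies on the Cre, so controls sorted in this way carried both the Cre and the reporter. Any cell in which the α-SMA promoter has been active can carry the reporter, so the sort is not specific to airway or vascular muscle. The labels name the strain, tissue, cell type and genotype, but no age, sex or batch. The study describes its RNA-seq replicates as independent animals.

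SMCs are not terminally differentiated, and move between a contractile state rich in actin, myosin and their partners and a synthetic state that divides, migrates and lays down matrix. Serum response factor (SRF) binds the CArG box of contractile, cytoskeletal and immediate early genes, and its partner decides which of them is used. Myocardin (MYOCD) is the coactivator that turns SRF toward contractile genes, ELK1 displaces it and turns SRF toward growth factor-induced genes, KLF4 and FOXO4 repress its activity, KLF5 promotes the synthetic state, GATA6 favors the quiescent contractile state, MEF2C drives *Myocd*, and PRRX1 marks mesenchymal cells.

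The regulatory sequence of *Srf* is shown because SRF is a target of its own complex, and the CArG box is the sequence at which MYOCD and the ternary complex factors act with it. The 250 bases upstream of the annotated start of *Srf*, chr17:46556163-46556412 on the minus strand, and of *Klf4*, chr4:55532476-55532725 on the minus strand (RefSeq, GRCm38.p6), read 5′ to 3′ as follows. Capitals in *Srf* mark the CArG box, the ETS core CCGGAAG, the GC box GGGCGG and the CCAAT box, and in *Klf4* they mark GGGCGG, on either strand, where 2 matches overlap.
Srf promoter: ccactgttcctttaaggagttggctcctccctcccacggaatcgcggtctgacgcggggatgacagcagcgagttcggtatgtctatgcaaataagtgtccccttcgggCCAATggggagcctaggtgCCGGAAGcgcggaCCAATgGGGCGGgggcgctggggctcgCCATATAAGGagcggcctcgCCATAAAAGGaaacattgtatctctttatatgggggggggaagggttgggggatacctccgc
Klf4 promoter: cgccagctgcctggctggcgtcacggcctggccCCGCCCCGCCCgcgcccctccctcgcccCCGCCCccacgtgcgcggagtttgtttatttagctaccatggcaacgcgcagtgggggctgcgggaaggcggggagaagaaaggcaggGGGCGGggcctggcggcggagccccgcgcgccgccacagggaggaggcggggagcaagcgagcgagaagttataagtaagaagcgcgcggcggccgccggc
The *Srf* promoter held 2 CArG boxes, with first bases 82 and 62 bases before the start, and 1 ETS core 122 bases before it, the kind of element that ELK1 binds beside SRF. A CArG box was found in 1.63% and CCGGAAG in 8.86% of the 32851 promoters of the same window. *Klf4* held 4 matches to GGGCGG, which 35.7% of promoters hold, and no CArG box. Of the other members in the promoter table, *Elk1*, *Mef2c* and *Prrx1* had no CArG box in this window either. *Myocd*, *Klf5*, *Gata6* and *Foxo4* had no entry.

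Among genes that SRF is known to serve, a CArG box within the same window was present in 4 of 8 cytoskeletal genes, 2 of 9 immediate early genes and 1 of 16 contractile genes with an entry, against 1.81% of 27025 genes. Only the strict pattern CCWWWWWWGG, where W is A or T, was counted here and for the factors, so boxes that differ from it by any base are missed. A match is a description of the letters only, and CArG boxes elsewhere in a gene are not seen in this window. The boxes of 3 genes followed below are shown with the bases around them, the CArG box in capitals, at chr14:20929161-20929190 (plus strand) for *Vcl*, chr2:156775293-156775322 (plus strand) for *Myl9* and chr7:28379267-28379296 (minus strand) for *Zfp36*.
Vcl: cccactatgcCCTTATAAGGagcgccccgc
Myl9: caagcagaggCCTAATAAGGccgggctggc
Zfp36: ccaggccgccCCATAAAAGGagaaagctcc
*Vcl* encodes vinculin of focal adhesions, *Myl9* a regulatory myosin light chain and *Zfp36* an mRNA decay factor induced by growth factors.

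The libraries were not alike within groups. Deposited totals were 6805272 to 7164573 normalized counts. Control replicate 2 stood apart, with a first principal component (60.9% of the variance) of 68.3 against -36.4 to -11.1 in the others. It had 2 normalized counts of *Xist* and 774 of *Ddx3y*, where the others had 5214 to 6781 and 0. By these genes it came from a male and the others from females, so sex was mixed in the controls only. Sex thus cannot be told apart from the other traits of control replicate 2. *Tet3* itself was 1847 and 1926 in the controls and 1534 and 1444 in the mutants, a log2 fold change of -0.34 (SE 0.10, limma adjusted p 0.681). The deposited values cover all its exons, including those that were not deleted. The libraries contained smooth muscle markers (summed values of 10762 to 12895) and also markers of fibroblasts (20028 to 25466), alveolar type 2 cells (11307 to 25097) and endothelium (10457 to 12395). In such bulk libraries, fewer cells of a type and less RNA per cell cannot be told apart.

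No factor passed the adjusted threshold between Tet3 mutant and control libraries, and 0 of all 16659 genes tested did (0% called, limma, Benjamini-Hochberg), while 1112 had an unadjusted p under 0.05 and 1 gene was called by limma without its mean-variance trend. At an unadjusted p under 0.05, *Myocd* was higher in the mutants and *Srf* and *Klf5* were lower, 3 of 9 factors, where 6.68% of all genes tested reached that level, 3.83% higher and 2.85% lower. Both mutant libraries lay on one side of both controls for 5 of 9 factors, higher for *Myocd* and *Mef2c* and lower for *Srf*, *Klf4* and *Klf5*, against 39% of all genes. The median log2 fold change of the 9 was -0.02 and that of all genes -0.007. The smallest p that an exact permutation test of 1 gene allows with 2 against 2 libraries is 0.33, so each factor was tested by limma alone, whose error draws on the spread of all genes.

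**Figure D1:**
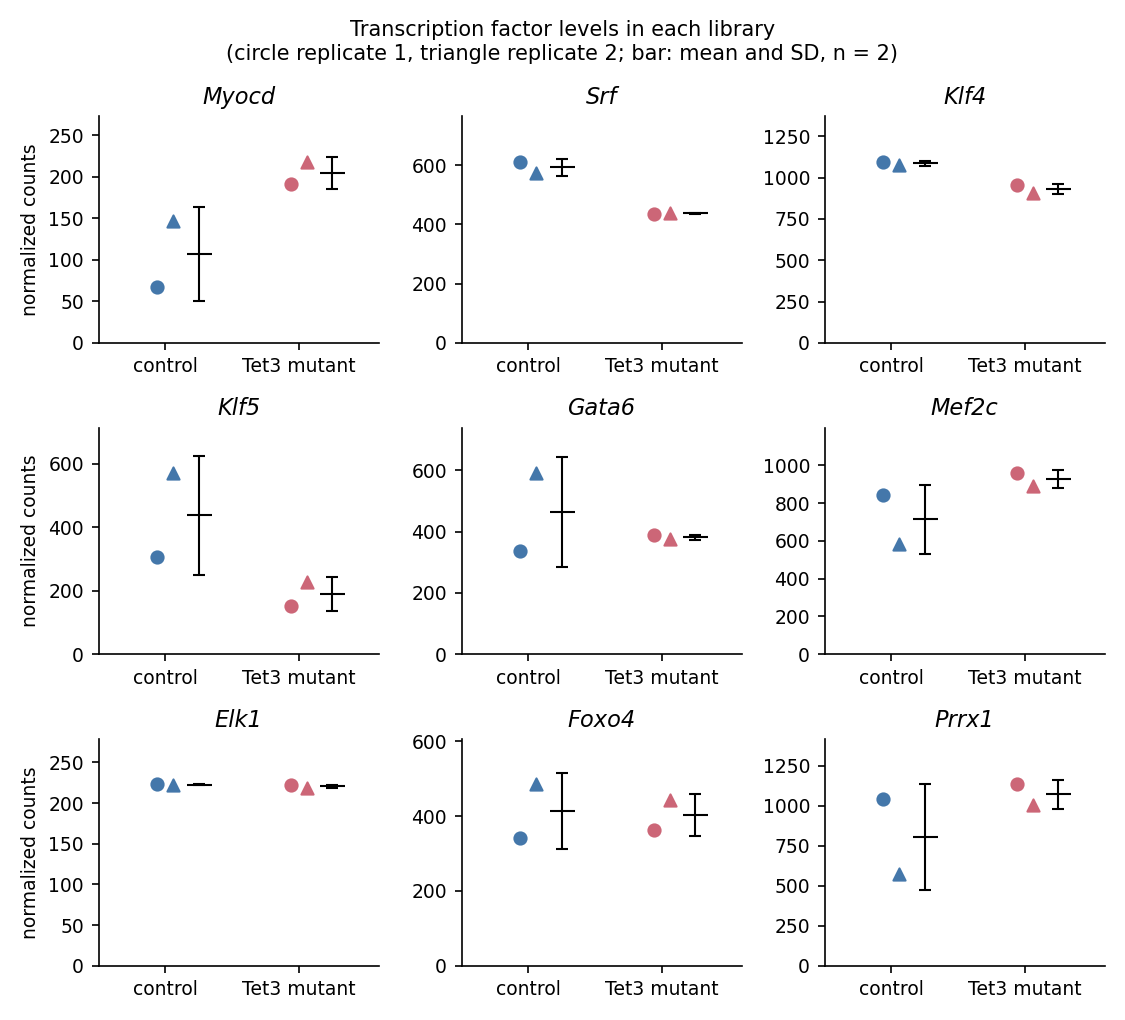
Normalized counts (linear axis from 0) of each factor in the 4 libraries, with circles for replicate 1, triangles for replicate 2 and bars for the mean and SD of each group (n = 2). The mutant points lie together for *Srf* (435 and 439) and *Gata6* (388 and 376), whereas the control points are far apart for *Myocd* (67 and 147), *Klf5* (306 and 571) and *Prrx1* (1041 and 572).

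The factors spanned a wide range of levels. Per kilobase of exon, *Klf4* was highest, at 331 ± 29.9 normalized counts per kb (SD, n = 4 libraries), followed by *Srf* at 178 ± 31.5 and *Foxo4* at 117 ± 19.3. *Klf4*, a repressor of contractile genes and an early response gene, lay between percentiles 96.5 and 97.9 of the genes tested in every library. *Prrx1* (84.8 ± 22.6), *Gata6* (65 ± 17.6), *Klf5* (60.5 ± 35), *Mef2c* (52.2 ± 10.4) and *Elk1* (41.2 ± 0.322) followed on the same scale, and the ranges over the 4 libraries of neighbors among these 5 overlap. Averaged over the 4 libraries, the coactivator gene *Myocd* was lowest at 24.2 ± 10.3, from percentile 13.9 in control replicate 1 (10.4 per kb) to percentile 37.2 in Tet3 mutant replicate 2 (33.9 per kb). In Tet3 mutant replicate 1, *Klf5* (29.4 per kb) was at about the level of *Myocd* (29.7 per kb), and *Klf5* was 58.8 and 110 per kb in the controls, so its place in this order differed between libraries. *Klf4* and *Srf* did not overlap each other over the 4 libraries, at 298 to 360 and 150 to 212 per kb, and *Srf* did not overlap *Foxo4*, at 97.8 to 139 per kb.

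*Myocd* (ENSMUSG00000020542, chr11:65176561-65269989 on GRCm38, minus strand), the coactivator of the contractile program, had 67 and 147 normalized counts in the controls (replicate 1, then 2) and 191 and 218 in the mutants, in the same order. Both mutants were above both controls, and the controls differed 2.19-fold from each other against 1.14-fold for the mutants. The means were 107 ± 56.6 and 204.5 ± 19.1 (SD, n = 2 each), a ratio of 1.91. The log2 fold change was 1.03 (SE 0.40, 95% confidence interval 0.01 to 2.05), with an unadjusted p of 0.0483 and a limma adjusted p of 0.681. A difference of at least this size in either direction was found in 5.47% of all genes tested. The log2 fold change was 0.47 without control replicate 1, the lowest library, and 1.59 without control replicate 2. The paper describes the expression of *Myocd* and *Klf4* as unchanged after loss of *Tet3*. Neither passed the adjusted threshold here, but 0 of all genes tested did, and *Tet3* itself did not. This threshold therefore cannot tell unchanged from changed expression in these libraries.

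*Srf* (ENSMUSG00000015605, chr17:46548329-46556175, minus strand), the DNA-binding partner of MYOCD, had 612 and 573 normalized counts in the controls and 435 and 439 in the mutants. The groups did not overlap, and replicates were close in both, 1.07-fold apart in the controls and 1.01-fold in mutants, where the median gene tested was 1.21-fold and 1.13-fold apart. The squared difference between replicates divided by their sum was 1.28 in the controls and 0.0183 in the mutants. For raw counts, counting noise alone gives this quantity an average of 1, with wide scatter for a single gene. The values here are scaled, so 1 is only a rough guide. The log2 fold change was -0.44 (SE 0.11, 95% confidence interval -0.73 to -0.14), at an unadjusted p of 0.0121 and a limma adjusted p of 0.681. It lay between -0.48 and -0.39 when any 1 library was left out. The mutant mean was 0.738 of the control mean for *Srf* and 1.91 times it for *Myocd*, so the coactivator and its partner differed in opposite directions.

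*Klf4* (ENSMUSG00000003032, chr4:55527143-55532466, minus strand), which represses contractile genes, had 1097 and 1076 normalized counts in the controls and 955 and 910 in the mutants. The groups did not overlap and replicates were at most 1.05-fold apart, but the difference was small, with a log2 fold change of -0.22 (SE 0.10, 95% confidence interval -0.48 to 0.04, limma adjusted p 0.681), and -0.23 without control replicate 2. *Klf5* (ENSMUSG00000005148, chr14:99298691-99315036, plus strand), a driver of the synthetic state that lung epithelium also expresses, had 306 and 571 in the controls and 153 and 228 in the mutants. Each mutant was below each control, and the log2 fold change was -1.16 (SE 0.36, 95% confidence interval -2.08 to -0.24, unadjusted p 0.023, limma adjusted p 0.681). Replicates differed 1.87-fold in the controls and 1.49-fold in mutants. Without control replicate 2 its log2 fold change was -0.71, and without control replicate 1 it was -1.61.

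*Mef2c* (ENSMUSG00000005583, chr13:83504034-83667080, plus strand), a MADS-box factor of muscle, endothelium and B cells, had 844 and 584 normalized counts in the controls and 959 and 892 in the mutants. The mutants were above both controls, by a log2 fold change of 0.40 (SE 0.20, 95% confidence interval -0.11 to 0.90, limma adjusted p 0.683). Without control replicate 2 that value was 0.13. *Prrx1* (ENSMUSG00000026586, chr1:163245119-163313710, minus strand), a homeobox factor of mesenchyme, had 1041 and 572 in the controls and 1133 and 1007 in the mutants. Its groups overlapped, and the log2 fold change of 0.47 (SE 0.29, 95% confidence interval -0.28 to 1.22, limma adjusted p 0.703) was 0.04 without control replicate 2. The low library was control replicate 2 for both genes.

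*Gata6* (ENSMUSG00000005836, chr18:11052064-11085635, plus strand), a zinc finger factor of quiescent vascular SMCs and of lung epithelium, had 336 and 591 normalized counts in the controls and 388 and 376 in the mutants. The mutants lay between the controls, at a log2 fold change of -0.22 (SE 0.28, 95% confidence interval -0.94 to 0.50, limma adjusted p 0.838) that turned to 0.18 without control replicate 2. *Foxo4* (ENSMUSG00000042903, chrX:101254528-101260873, plus strand), a forkhead factor that binds MYOCD, had 341 and 485 in the controls and 363 and 442 in the mutants. Both mutants lay between the controls, with a log2 fold change of -0.02 (SE 0.22, 95% confidence interval -0.58 to 0.53, limma adjusted p 0.985), which was 0.23 without control replicate 2, 0.12 without Tet3 mutant replicate 1 and 0.03 at equal library totals.

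*Elk1* (ENSMUSG00000009406, chrX:20933395-20950608, minus strand), the ternary complex factor that competes with MYOCD for SRF, was the most even of the 9, with 223 and 222 normalized counts in the controls and 222 and 219 in the mutants. The log2 fold change of -0.01 (SE 0.15, 95% confidence interval -0.39 to 0.36, limma adjusted p 0.987) became 0.04 at equal library totals. Some factors share their locus with other annotated genes. *Elk1* overlaps *Uxt* (42 to 55 normalized counts) on the same strand, *Gata6* overlaps the antisense gene *Gata6os* (31 to 49), and *Prrx1* overlaps *Gm37644* (29 to 92) on the same strand. The annotation also places genes across *Srf* and *Prrx1*, on both strands, that were not analysed here. Since the use of strand in counting is not stated, the values of *Gata6*, *Srf* and *Prrx1* are uncertain in this respect.

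**Figure D2:**
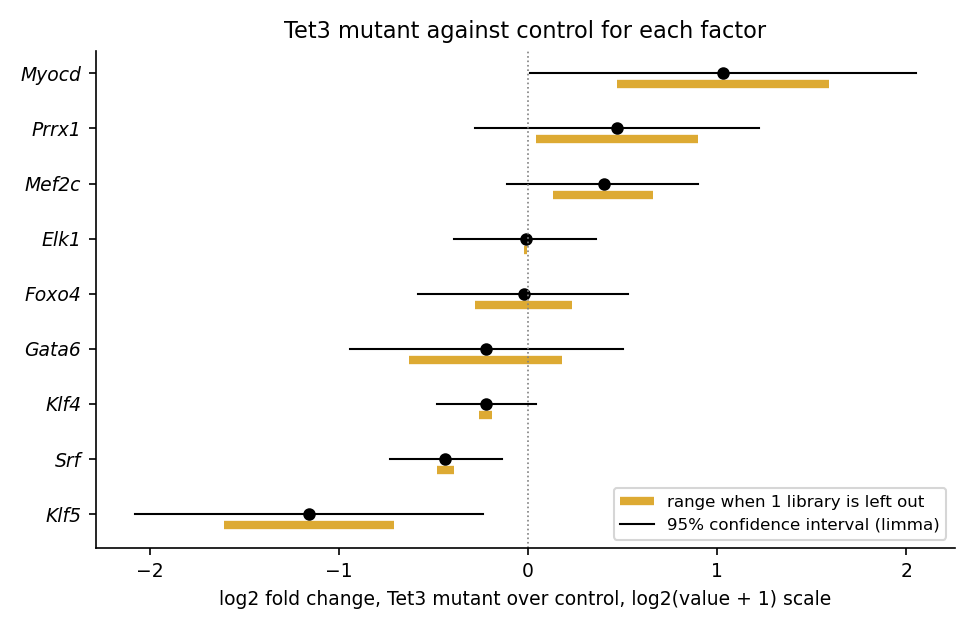
Log2 fold change (Tet3 mutant over control, log2(value + 1) scale) of each factor as a point, with the 95% confidence interval from limma as a thin line and the range of values when 1 library is left out as a thick line. The intervals of *Myocd*, *Srf* and *Klf5* lie to one side of 0, before adjustment, and the thick lines of *Gata6* (-0.63 to 0.18) and *Foxo4* (-0.28 to 0.23) cross 0.

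The spread between replicates itself differed among the factors. Controls were further apart than mutants in 7 of 9 factors, against 63% of all genes tested, and control replicate 2 was the highest or lowest library in 5 of 9, against 68.7%. In controls the squared difference over the sum was 136 for *Prrx1*, 80.1 for *Klf5*, 70.1 for *Gata6*, 47.3 for *Mef2c*, 29.9 for *Myocd* and 25.1 for *Foxo4*, all far above 1. For *Klf4* (0.203) and *Elk1* (0.00225) it was below 1. Control values near or below 1 were thus those of *Srf*, *Klf4* and *Elk1*. The share of all genes at such values was not counted, and the median gene tested was 1.21-fold apart in the controls. The controls also differed in sex by *Xist* and *Ddx3y*, so these values describe 1 pair of unlike libraries and do not sort the factors into kinds.

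Ratios of factors within a library do not depend on how the libraries were scaled. *Myocd* was 0.109 and 0.257 of *Srf* in the controls and 0.439 and 0.497 in the mutants, which is a log2 ratio of -2.58 ± 0.87 in controls and -1.10 ± 0.13 in the mutants (SD, n = 2 each). The difference of 1.48 lay between 0.86 and 2.09 when 1 library was left out. *Klf5* was 4.57 and 3.88 times *Myocd* in the controls and 0.801 and 1.05 times in mutants, a log2 difference of -2.20 (-2.39 to -2.01 with 1 library left out). Unlike either gene alone, this ratio was close within controls (log2 2.07 ± 0.17), and both genes were higher in control replicate 2 than in control replicate 1.

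*Klf4*, the repressor, was 16.4 and 7.32 times *Myocd* in the controls and 5 and 4.17 times in mutants, a log2 difference of -1.26 that was -0.68 without control replicate 1 and -1.84 without control replicate 2. The ratio of *Klf4* to *Srf* was narrow, at 1.79 and 1.88 in the controls and 2.2 and 2.07 in the mutants, a log2 difference of 0.22 (0.18 to 0.26 with 1 library left out). That of *Klf5* to *Klf4* was 0.279 and 0.531 in the controls and 0.16 and 0.251 in the mutants, a log2 difference of -0.94 (-1.41 to -0.48 with 1 library left out). The groups did not overlap in any of these 5 ratios. They were formed from genes whose differences are given above, so they describe the same values and carry no test.

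**Figure D3:**
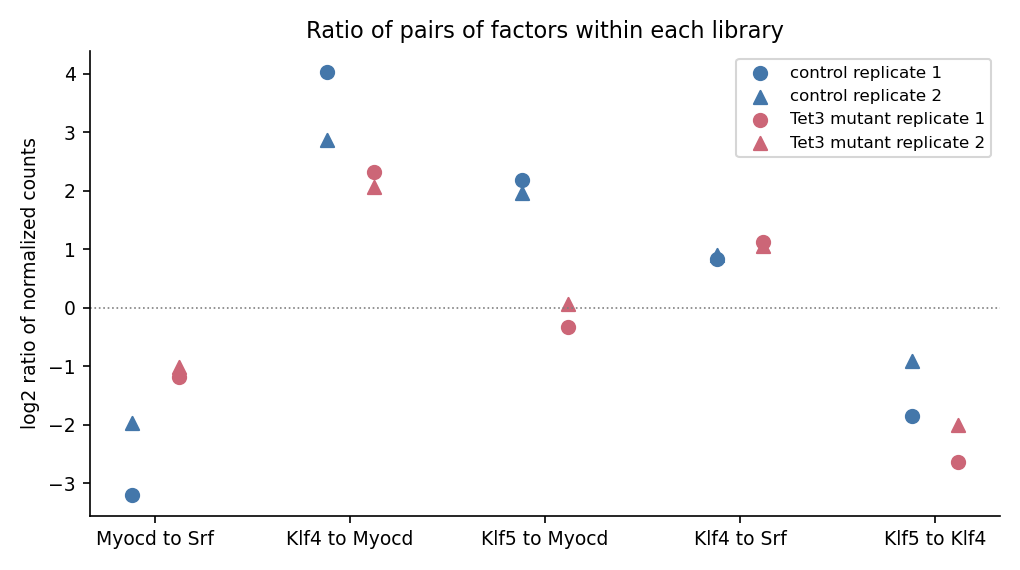
Log2 ratios of normalized counts for 5 pairs of factors within each library, controls in blue and Tet3 mutants in red, circles for replicate 1 and triangles for replicate 2. The red points are above the blue points for *Myocd* over *Srf* (-1.19 and -1.01 against -3.19 and -1.96) and for *Klf4* over *Srf*, and below them for the other 3 pairs.

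The genes whose values over the 4 libraries lay nearest those of *Myocd*, among 12787 genes with a mean of at least 50, were *Cnn1*, *Gcsam* and *Slamf8*, at Euclidean distances of 0.215, 0.217 and 0.256 on the centered log2 scale. *Cnn1*, the contractile gene of calponin, had 57 and 110 normalized counts in the controls and 138 and 186 in the mutants. *Gcsam* had 39 and 83 against 117 and 109, and *Slamf8* had 41 and 82 against 104 and 149. Neither of these belongs to the contractile genes or to any other list used here, and *Gcsam* lay about as near as *Cnn1*. Nearest to *Srf* were *Rbm12b1* (0.030), *Zbed4* (0.051) and *Slc10a6* (0.052). With 4 libraries, such likeness is a description of 4 values.

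The partners of SRF and MYOCD showed small differences. Of 11 tested genes of the myocardin family and SRF cofactors, 5 were above and 6 below 0, with a median log2 fold change of -0.03 against -0.007 for all genes, and 0 passed the adjusted test. The myocardin-related coactivators *Mrtfa* (600 and 667 in the controls, 654 and 621 in the mutants) and *Mrtfb* (1301 and 1152, 1196 and 1204) had log2 fold changes of 0.01 and -0.03. The ternary complex factors *Elk3* and *Elk4* had 0.14 and -0.06. *Csrp2*, a LIM protein that joins SRF to GATA factors, was the only one of the list at an unadjusted p under 0.05, with 175 and 180 in the controls and 225 and 251 in the mutants (a log2 fold change of 0.42, limma adjusted p 0.681). *Mical2*, an actin oxidase that activates SRF, was highest in control replicate 2, at 2266 against 1086 to 1357.

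Among 12 cofactors known to repress MYOCD, 4 were above and 8 below 0, with a median of -0.03 and 0 at an unadjusted p under 0.05. The histone deacetylase genes *Hdac4*, *Hdac5*, *Hdac7* and *Hdac9* had log2 fold changes of 0.03, -0.09, -0.18 and -0.22, and the Notch target *Hey2* had 0.25. Of 21 relatives of the factors, 10 were above and 11 below 0, with a median of -0.02. *Klf2*, the endothelial and flow-responsive relative of *Klf4*, had 647 and 703 in the controls and 474 and 550 in the mutants (a log2 fold change of -0.40, unadjusted p 0.0282, limma adjusted p 0.681). *Klf15*, with 459 and 484 against 341 and 422, had -0.31. *Mef2a* and *Foxo3*, the most abundant relatives of *Mef2c* and *Foxo4*, had -0.02 each.

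*Gata4*, the cardiac relative of *Gata6*, had 19 and 9 normalized counts in the controls and 48 and 40 in the mutants (a log2 fold change of 1.66, unadjusted p 0.0171, limma adjusted p 0.681). *Hand2*, a mesenchyme factor that partners with GATA4, had 3 and 3 in controls, which is at the floor of 3 counts, and 20 and 14 in the mutants. Both genes were at low values, where counting error is large. Of the 17 tested transcription factors of lung smooth muscle and mesenchyme, 15 were above and 2 below 0 (49% of all genes were above), with a median of 0.28 that was 0.10 to 0.35 with 1 library left out, and 6 had both mutants above both controls, against 19.6% of all genes. *Meox1* had 78 and 57 in the controls and 132 and 96 in the mutants, and *Heyl* 576 and 610 against 779 and 667. The most abundant of them differed less, with log2 fold changes of -0.08 for *Foxf1*, 0.05 for *Tbx5*, 0.10 for *Tbx4* and 0.14 for *Tcf21*.

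The targets of the factors were then followed by program. Of 20 contractile genes with known CArG control, 14 were above and 6 below 0, with a median of 0.19 (0.14 to 0.29 with 1 library left out), 9 had both mutants above both controls against 19.6% of all genes, and 0 passed the adjusted test. Those at an unadjusted p under 0.05 were *Actg2*, *Des*, *Tpm2* and *Cnn1*, all higher in mutants. *Actg2*, smooth muscle gamma actin, had 101 and 158 normalized counts in the controls and 237 and 311 in the mutants (a log2 fold change of 1.10, limma adjusted p 0.681), and *Des*, desmin, had 623 and 754 against 972 and 965 (0.50). The abundant *Mylk* had 5721 and 4705 in the controls and 5134 and 4476 in the mutants, *Vcl* a log2 fold change of -0.05 and *Cald1* one of 0.11. These gene-level values do not separate full-length mRNA from other transcripts of a gene. The paper reports more reads of genes such as *Acta2* and *Cnn1* in mutant SMCs, but less full-length mRNA by PCR. It also reports less α-SMA and MYH11 protein.

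The immediate early genes, which SRF serves with ELK1 and its relatives, lay the other way. All 12 tested were below 0, with a median of -0.35, and both mutants were below both controls in 5, against 19.5% of all genes. *Fosb* had 848 and 1162 normalized counts in the controls and 646 and 256 in the mutants (a log2 fold change of -1.29, unadjusted p 0.036, limma adjusted p 0.681), and *Nr4a1* had 1097 and 1805 against 1079 and 521 (-0.91). *Zfp36*, whose CArG box is shown above, had 802 and 1169 against 856 and 603 (-0.43), with overlap. For most of these genes Tet3 mutant replicate 2 was the lowest library, and the median was -0.06 without it. *Srf* itself was not lower in that library than in the other mutant.

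Of 12 cytoskeletal targets of SRF and the myocardin-related factors, 4 were above and 8 below 0, with a median of -0.04. *Myl9*, whose CArG box is shown above, had 341 and 443 in the controls and 525 and 555 in the mutants (a log2 fold change of 0.47, limma adjusted p 0.681), whereas *Flna*, *Actb*, *Fhl1* and *Zyx* lay between -0.05 and 0.03. Among 13 tested genes of the synthetic state, 10 were above and 3 below 0, with a median of 0.01. *Timp1*, a protease inhibitor, had 63 and 31 against 86 and 107 (log2 fold change 1.10, limma adjusted p 0.681), and *Vim* and *Fn1* each had 0.01. The lists were written with earlier results of these data known, so their counts are a description.

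**Figure D4:**
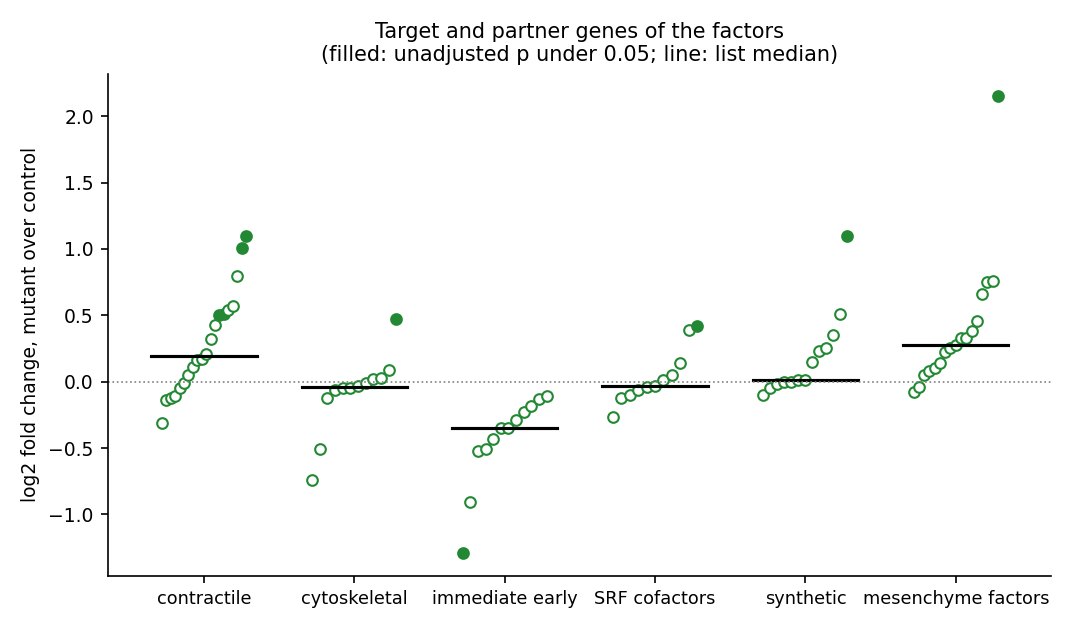
Log2 fold change (Tet3 mutant over control) of each tested gene in 6 lists of targets and partners, filled where the unadjusted p was under 0.05, with the list median as a line. The immediate early genes all lie below 0 (median -0.35), the contractile genes reach 1.10 with a median of 0.19, and the SRF cofactors and cytoskeletal genes center near 0 (-0.03 and -0.04).

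Several factors are made by more than 1 cell type of the lung, and markers of these types moved between libraries. Summed markers of alveolar type 2 cells were 16681 and 25097 in the controls and 11307 and 15141 in the mutants, 0 of 10 being above 0, with no marker at 0 in every library. *Klf5* followed the same order of libraries. As a share of that sum *Klf5* was 1.83% and 2.28% in the controls and 1.35% and 1.51% in the mutants, a log2 difference of -0.52 against -1.16 before division. Per alveolar type 1 marker (summed values of 5224 to 7207) *Klf5* was 5.43% and 7.92% against 2.93% and 3.96%, a log2 difference of -0.94, also without overlap. Ciliated cell markers lay the other way, with 10 of 10 above 0 and sums of 2826 and 3161 against 5634 and 3954. *Gata6* turned from -0.22 to 0.42 when divided by the summed alveolar type 2 markers. Whether epithelial RNA accounts for part of the *Klf5* difference was not tested.

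Summed smooth muscle markers were 10762 and 11305 in the controls and 12895 and 11870 in the mutants. Of the markers, 9 of 10 were above 0, with a median log2 fold change of 0.46. The marker below 0 was *Mylk*, the most abundant, with 5721 and 4705 in the controls and 5134 and 4476 in the mutants. *Mylk* thus weighs heavily in the sum, and the sum without it was not used. *Myocd* per summed smooth muscle marker was 0.623% and 1.3% in the controls and 1.48% and 1.84% in the mutants, still without overlap, a log2 difference of 0.87. *Srf* on the same scale was 5.69% and 5.07% against 3.37% and 3.7%, a log2 difference of -0.60. Pericyte markers summed to 4578 and 4844 in the controls and 6532 and 5633 in the mutants, with 7 of 8 above 0. The exception was *Rgs5*, with 244 and 342 in the controls and 192 and 201 in the mutants. *Myocd* per pericyte marker overlapped between groups, at 1.46% and 3.03% against 2.92% and 3.87%. *Myocd* is also made by heart muscle, and 7 of 9 cardiomyocyte markers were above 0. Their sum was highest in control replicate 2 (2456, against 979 to 1342), which came from *Ttn* (1759 there, 213 to 444 in the others), and the log2 difference of *Myocd* on that sum was 1.56. Without *Ttn* the sums were 662 and 697 in the controls and 1030 and 766 in the mutants, and the share of *Myocd* overlapped between groups, at 10.1% and 21.1% against 18.5% and 28.5%, a log2 difference of 0.65.

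For *Prrx1*, summed fibroblast markers were 23521 and 20028 in the controls and 25466 and 22367 in the mutants, with 8 of 10 above 0 and the same order of libraries as *Prrx1*. Per fibroblast marker *Prrx1* was 4.43% and 2.86% in the controls and 4.45% and 4.5% in the mutants. *Mef2c* per endothelial marker was 7.03% and 5.58% against 7.74% and 7.76%, without overlap. B cell markers summed to 535 and 165 against 563 and 256, and on that sum *Mef2c* overlapped, with a log2 difference of 0.04. Other immune markers remained after the depletion and were higher in the mutants on balance, with 10 of 10 macrophage markers (sums of 5724 to 8991, median log2 fold change 0.44), 7 of 7 neutrophil markers (830 to 1989, 0.80) and 9 of 9 T cell markers (306 to 1098, 1.13) above 0. Without control replicate 2 the median was 0.27 for macrophage, 0.61 for neutrophil and 0.15 for T cell markers. Genes of dissociation stress summed to 11865 and 15386 in the controls and 12369 and 8986 in the mutants, 0 of 14 being above 0, and 8 of them are also in the immediate early list. Per stress gene, *Srf* overlapped between groups (log2 difference -0.08) and *Klf4* turned to 0.14. Per endothelial marker *Klf4* stayed without overlap, at 9.13% and 10.3% against 7.7% and 7.92%, a log2 difference of -0.31. The part of these cell types and of dissociation in the differences of the factors was not tested.

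**Figure D5:**
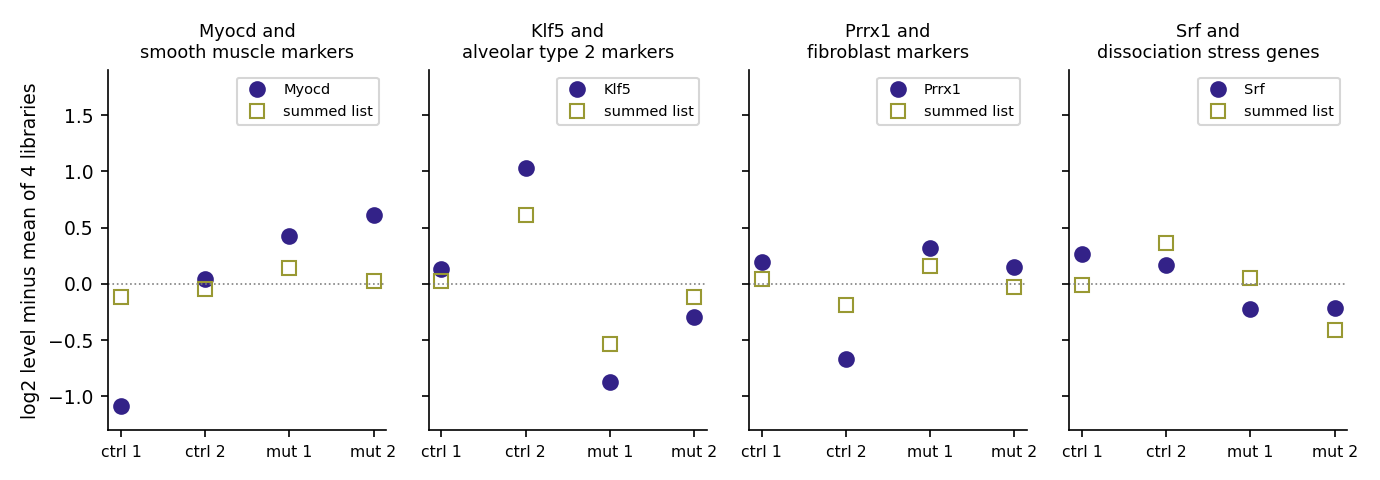
Log2 level minus the mean over the 4 libraries for *Myocd*, *Klf5*, *Prrx1* and *Srf* (filled circles), each beside a summed marker list (open squares). *Klf5* and alveolar type 2 markers have the same order of libraries, as do *Prrx1* and fibroblast markers, whereas *Myocd* covers a wider range than the smooth muscle markers (67 to 218 against 10762 to 12895).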

How the data were processed

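RNA of sorted lung SMCs from 2 control and 2 Tet3 mutant samples was depleted of ribosomal RNA, made into stranded total RNA libraries and read in single-end mode. The submitters' processing notes name FastQC, Trimmomatic 0.36, STAR 2.6.0c and featureCounts (Subread 1.6.0), with mm10 (GRCm38). By the methods, reads with several positions or several genes were excluded. The deposited values are a score, since the authors scaled counts between samples with DESeq2 and rounded them to whole numbers. Raw counts are thus not at hand, and no count-based test was run, and read depth is given only as deposited totals of 6805272 to 7164573.

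Groups and replicate numbers came from the labels. Genes with a mean of at least 10 (16659 of 21462) were compared on log2(value + 1), which understates changes of low genes, with limma 3.58.1 in R 4.3.3 (mean-variance trend, two-sided, Benjamini-Hochberg over all genes tested, threshold 0.05). Levels between genes were divided by exon length. Of the genes tested, 99.9% were found in GENCODE M21, 99.0% with the same coordinates. Sums of markers are sums of normalized counts. The fit was tested on simulated data, drawn with the same relative spread for all genes and no outlying library. That test checks the code and does not show how the fit performs on these libraries. The floor is 3 counts and covers counting error only.

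The members and lists were chosen with earlier results of these data known. Named were the 9 factors, *Tet3*, from each pathway list up to 6 genes of largest mean and up to 4 of smallest p, the 3 nearest profiles of *Myocd* and *Srf*, and in marker lists the gene of largest mean. *Mrtfa*, *Zfp36*, *Xist*, *Ddx3y*, *Rgs5* and genes overlapping a factor were added afterwards. The text gives a part of these. Promoter sequences (RefSeq, GRCm38.p6, 250 bases before to 50 after the start) matched 5 of 9 factors. Protein alignments were not analysed here. Some genes of the lists were not analysed here, and *Mef2b* and *S100a4* were below the minimum. Same-numbered samples deviated together only weakly (r = 0.134, Spearman 0.123, over genes) and over 2 pairs, and were not taken as paired. Alternatives were a pseudocount of 0.5 or 8, a minimum mean of 1 or 50, TMM factors, equal totals, no trend, the replicate block and each library left out. Division of a factor by summed markers, also without *Ttn*, was added after seeing the data.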

Additional observations from a re-analysis of the deposited data

How the results depend on the processing

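Without the mean-variance trend limma called 1 gene, with an adjusted p of 0.0307, and 1 of the 9 factors had an unadjusted p under 0.05. Equal library totals moved the median of all genes from -0.007 to 0.041, and with it *Elk1* to 0.04 and *Foxo4* to 0.03. Under the pseudocounts, minimums and TMM factors every factor kept its direction. With each library left out in turn, limma pools the spread and the lone sample is assumed to vary like the others. The factors at an unadjusted p under 0.05 then numbered 0 to 5 (1.64% to 20.2% of all genes) and those whose groups did not overlap 6 to 8 (63.8% to 78.7% of all genes). The 5 came without control replicate 1, where 20.2% of all genes reached that level. With 1 library left out, the log2 fold changes of *Gata6* and *Foxo4* ranged from -0.63 to 0.18 and from -0.28 to 0.23. Those of the other 7 factors kept their sign. Divided by summed markers, *Gata6* turned to 0.42 (alveolar type 2) and *Klf4* to 0.14 (dissociation stress genes). The causes were not tested. The replicate block left the count of called genes at 0, with 0.149 as the smallest limma adjusted p and 1637 genes at an unadjusted p under 0.05. In that fit, *Klf5*, *Myocd* and *Srf* had adjusted p of 0.225, 0.441 and 0.447. Having 2 libraries per group limits every value, as 1 control decides several of them.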
